A study of Mus musculus with 21 samples.

Results

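The nuclear-encoded genes of the mitochondrial respiratory chain were described in mouse hearts with and without doxorubicin (DOX) and with and without a 4T1 tumor. They were chosen by symbol, as the table rows that begin with Ndufa, Ndufb, Ndufc, Ndufs, Ndufv, Uqcr, Cox4 to Cox8 or Atp5, plus Sdha, Sdhb, Sdhc and Sdhd. Symbols with the pseudogene mark -ps were left out, which removed 15 rows. The rule used no measured value, although it was set with earlier results of these data known. It gave 99 of 56691 genes, called members here.

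The respiratory chain sits in the inner mitochondrial membrane. Complexes I and II pass electrons from NADH and succinate to ubiquinone, complex III passes them to cytochrome c, and complex IV passes them to oxygen. Complexes I, III and IV pump protons, and ATP synthase uses the proton gradient to make ATP. Most subunits are encoded in the nucleus, a few catalytic ones in mitochondrial DNA, and assembly factors help to build the complexes without staying in them. The heart is among the tissues that depend most on this chain, and several complex IV subunits have a form used in heart and skeletal muscle beside a form used in most tissues.

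RNA was sequenced from 21 libraries: non-tumor-bearing mice without doxorubicin (Control, n = 5), non-tumor-bearing mice given doxorubicin (DOX, n = 5), tumor-bearing mice without doxorubicin (Tb, n = 6) and tumor-bearing mice given doxorubicin (Tb-DOX, n = 5). By the methods of the study, doxorubicin was injected intraperitoneally once a week, and tumors were made by subcutaneous injection of cultured 4T1 cells, a mouse breast cancer line. Its results name normal saline (NS) as the treatment of the comparison mice. The strain, sex and age of the mice are not given in the sources used here. The labels name 4T-1 as the source of every library, whereas the study describes heart tissue. Cardiomyocyte markers were high in all libraries, with 10 markers summing to between 54020 and 96310 CPM (counts per 1000000 counts of a library).

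Libraries held 13521200 to 18601445 counts. In each group 1 library lay lowest in its mitochondrially encoded genes, and these are called the 4 libraries that stood apart. The share of counts from these genes was 12.6% in Control 3 against 24.7% to 26.8% in the other Control libraries. In DOX 3, Tb 6 and Tb-DOX 4 the median mitochondrially encoded gene was lower by a log2 difference of -0.46 to -0.51 than in the rest of the group. The outlier check given below picked the share of counts from these genes in Control 3 and Tb-DOX 4, but not in DOX 3 or Tb 6. Members took 4.27% of counts in Control 3 against 3.09% to 3.22% in the other Control libraries. They were higher there than in the rest of the group for 87 of 95, with a median log2 difference of 0.36. They were lower in DOX 3, Tb 6 and Tb-DOX 4, with median log2 differences of -0.28, -0.22 and -0.26. By group, the members' share of counts was 3.16% to 3.725% in DOX, 3.23% to 3.41% in Tb and 3.46% to 3.82% in Tb-DOX. The neutrophil markers had median log2 differences of 2.03, 1.29 and 1.05 in DOX 3, Tb 6 and Tb-DOX 4 and of -0.36 in Control 3. Tb 5 had 1.52 for these markers, while its members and mitochondrially encoded genes lay above the rest of its group, with 0.14 and 0.18. These 4 libraries were singled out after the values of the members had been seen, and counts of members and of other lists are also given without them. Over all genes, Tb 5 was the library least like its group, with log2 correlations of 0.917 to 0.950 to the other Tb libraries, which had 0.956 to 0.986 among themselves, and DOX 4 had the T cell markers at a sum of 311 CPM against 5.32 to 14.6 CPM in the other DOX libraries, nearly all of it from Cd3e (309 CPM), with each other T cell marker under 1 CPM in every Control and DOX library. Both were kept in the fit without the 4. Without DOX 4 alone, 12 members were higher and 8 lower in DOX than in Control.

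**Figure D1:**
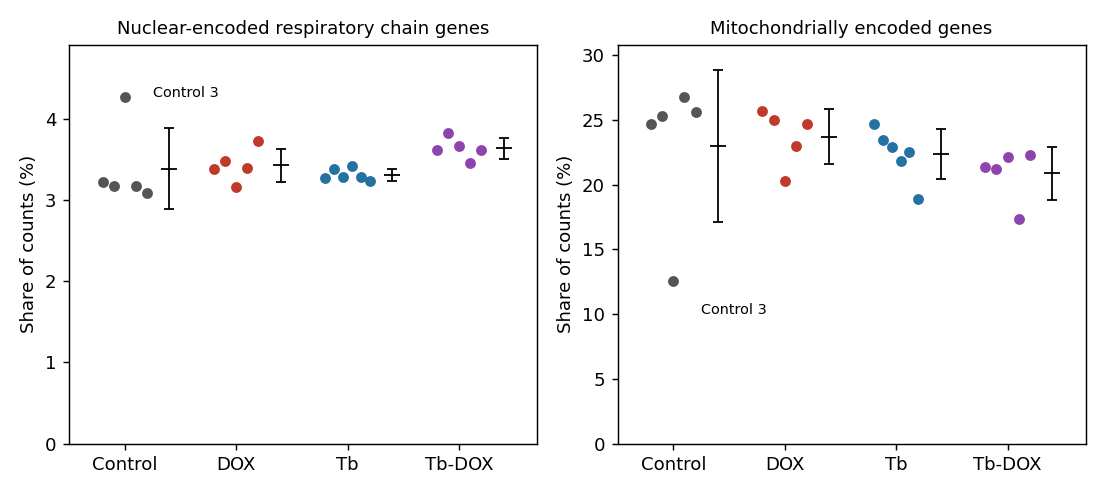
Share of all counts (y axis, %) from the members (left) and from mitochondrially encoded genes (right) in each library of the 4 groups. Points are libraries and bars show the mean ± SD. Control 3 had 4.27% from members and 12.6% from mitochondrially encoded genes, apart from the other 4 Control libraries in both.

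The promoters of 4 members are shown to give the sequence context of the results. They are the Cox7a1 and Cox7a2 pair, whose RNAs moved in opposite directions under doxorubicin, and Atp5g2 and Ndufaf4, which also moved in opposite directions and both hold a match to the NRF1 motif. NRF1, GABP (an ETS factor), YY1, ERR and CREB are transcription factors known to act on respiratory chain genes. Each sequence runs 5′ to 3′ over 300 bases, 250 before and 50 after the gene start, from RefSeq on GRCm38.p6. Capitals mark letters that match one of the motifs searched on both strands: NRF1 GCGCATGC, ETS/GABP CCGGAAG, YY1 AAGATGGC, ERR AAGGTCA and CRE TGACGTCA.
Cox7a1 promoter, chr7:30183921-30184220, plus strand: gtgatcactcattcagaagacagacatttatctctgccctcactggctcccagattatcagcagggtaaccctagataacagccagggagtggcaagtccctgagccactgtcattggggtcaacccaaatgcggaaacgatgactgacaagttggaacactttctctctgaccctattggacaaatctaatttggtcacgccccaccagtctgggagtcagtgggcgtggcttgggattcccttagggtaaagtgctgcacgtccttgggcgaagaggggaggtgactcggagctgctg
Cox7a2 promoter, chr9:79759804-79760103, minus strand: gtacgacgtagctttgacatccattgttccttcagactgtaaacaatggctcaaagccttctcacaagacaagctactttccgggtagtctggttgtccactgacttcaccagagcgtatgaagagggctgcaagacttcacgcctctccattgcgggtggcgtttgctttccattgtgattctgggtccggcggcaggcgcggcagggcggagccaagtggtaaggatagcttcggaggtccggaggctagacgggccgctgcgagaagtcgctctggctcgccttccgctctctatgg
Atp5g2 promoter, chr15:102670998-102671297, minus strand: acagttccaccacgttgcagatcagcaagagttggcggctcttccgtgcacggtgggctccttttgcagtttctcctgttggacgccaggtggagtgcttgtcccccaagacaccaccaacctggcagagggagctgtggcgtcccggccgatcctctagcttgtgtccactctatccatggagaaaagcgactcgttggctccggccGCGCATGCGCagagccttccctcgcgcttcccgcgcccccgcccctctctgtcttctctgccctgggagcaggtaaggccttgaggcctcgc
Ndufaf4 promoter, chr4:24897833-24898132, plus strand: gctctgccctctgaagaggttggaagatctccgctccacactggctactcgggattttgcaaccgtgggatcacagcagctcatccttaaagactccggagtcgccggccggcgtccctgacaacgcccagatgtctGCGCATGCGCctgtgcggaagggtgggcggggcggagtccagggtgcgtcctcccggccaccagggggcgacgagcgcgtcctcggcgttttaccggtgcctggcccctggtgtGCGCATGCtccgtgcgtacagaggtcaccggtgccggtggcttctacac

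Of the 99 members, 77 had a promoter in the table used. An NRF1 match was present in 15.6% of them (12 of 77) against 2.80% of 27025 promoters, and an ETS/GABP match in 23.4% against 9.12%. A YY1 match was present in 13.0% against 2.88%, an ERR match in 10.4% against 4.66%, and a CRE match in 5.19% against 1.88%. Neither Cox7a1 nor Cox7a2 held any of these letters in the window. The NRF1 letters read GCATGCGC on the other strand, so that the pair of matches at bases 209 and 211 of the Atp5g2 window share letters, as do those at 138 and 140 of Ndufaf4, which had a further match at 252. Among members with a promoter, NRF1 matches were in 2 of the 12 that were higher under doxorubicin and in 2 of the 8 that were lower.

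Levels between genes were compared as FPKM, fragments per kilobase of exon and per 1000000 counts. The F1 part of ATP synthase was the most abundant, with a median of 617 FPKM over its 5 genes and 1253 FPKM for Atp5a1, the catalytic-head alpha subunit. Complex III genes had a median of 302 FPKM, complex II 243 FPKM, complex IV 178 FPKM and the ATP synthase membrane part, stalk and regulator 145 FPKM. Complex I core subunits had a median of 133 FPKM and accessory subunits 110 FPKM. The 8 complex I assembly factors were far lower, with a median of 8.04 FPKM and a range of 3.45 to 33.3 FPKM. Of the members, 4 stayed under the minimum for testing (a mean of 0.5 FPKM): Cox7b2 and Cox8c, forms known from testis, and the gene copies Ndufa11b and Ndufb11b. The other 95 were tested.

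Without a tumor, single members of the chain differed in both directions between DOX and Control. In DOX, 15 subunit genes, among them the ATP synthase gamma subunit Atp5c1 and the complex IV subunits Cox7a2 and Cox7b, were higher than in Control, with log2 fold changes of 0.23 to 0.43. Lower values were called for 10 members, 5 of them complex I assembly factors and 3 of them complex IV isoforms, Cox7a1, Cox4i2 and Ndufa4l2. A member counted as called when the quasi-likelihood test of edgeR, fitted over 13990 genes and 4 groups after trimmed-mean (TMM) scaling, gave a Benjamini-Hochberg adjusted p under 0.05. The 25 called members were 26.3% of 95, where 36.2% of all genes tested were called, 18.0% higher and 18.2% lower. The median absolute log2 fold change was 0.16 over members and 0.35 over all genes, and no member was called with a log2 fold change of 1 or more in size, which 9.95% of all genes were. The libraries of the 2 groups did not overlap for 12 of 95 members, where this held for 25.3% of all genes.

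The split between higher and lower depended on scaling and on single libraries. With library totals in place of TMM, 4 members were higher and 21 lower, where 10.2% of all genes were higher and 25.2% lower, and the median over all 13990 genes was then -0.14 on the log2 scale. Without Control 3 the counts were 28 higher and 6 lower, and without DOX 3 they were 22 and 6. Without Control 5 they turned to 10 higher and 12 lower. Without the 4 libraries that stood apart they were 44 and 3. In that last fit 49.5% of members were called, above the 29.7% of all genes, of which 14.5% were higher and 15.2% lower. The share of members called lay under that of all genes with every library and above it without the 4. Control 3 had the highest and DOX 3 the lowest member levels of their groups, with median log2 differences of 0.36 and -0.28. Leaving them out raises the fold changes of most members by construction, so that the higher share follows in part from the choice of libraries. No called member changed sign in any of these fits. The 4 members that stayed higher under library totals were Atp5c1, Atp5a1, Cox7a2 and Uqcrc2, and all 10 lower members stayed lower. Without the 4 libraries, Cox7a1, Ndufaf3 and Ndufaf5 kept the call. The other 7 lost it with log2 fold changes that remained below 0, from -0.54 for Cox4i2 to -0.15 for Ndufb2.

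**Figure D2:**
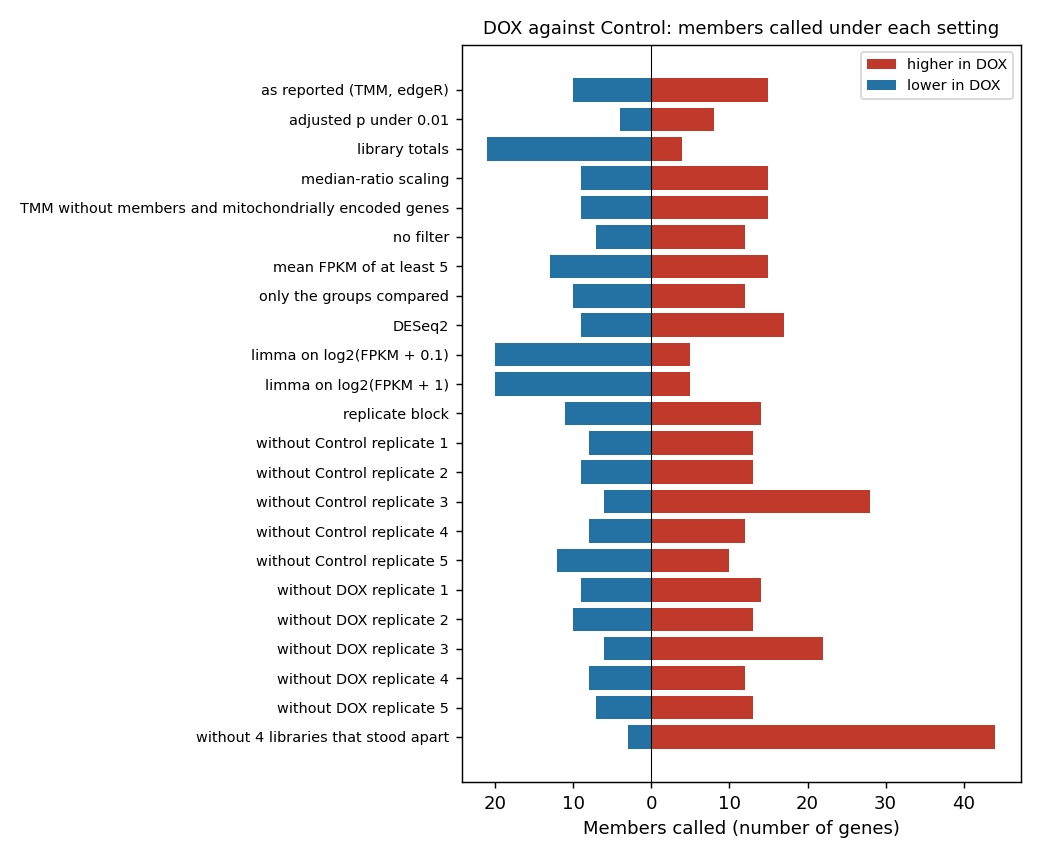
Members called higher (red, to the right) or lower (blue, to the left) in DOX than in Control, as numbers of genes on the x axis, under each setting on the y axis. The counts were 15 and 10 as reported, 4 and 21 with library totals, and 44 and 3 without the 4 libraries that stood apart.

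Complex I takes electrons from NADH. Among its 7 core subunits, Ndufv1, which binds NADH and the flavin, was higher in DOX (log2 fold change 0.33, SE 0.11, adjusted p = 0.0175). Its Control libraries stood at 473, 464, 729, 465 and 454 CPM and its DOX libraries at 627, 679.5, 605, 665 and 680.4 CPM. Control 3 lay above all DOX libraries, and the other 4 Control libraries lay under all of them. Ndufs1, which carries iron-sulfur clusters, had a log2 fold change of 0.08 (adjusted p = 0.544). Of 30 accessory subunits, Ndufa9 and Ndufa7 were higher and Ndufb2 and Ndufv3 were lower, where 18.0% of all genes were higher and 18.2% lower. Ndufa9 had a log2 fold change of 0.32 (adjusted p = 0.0181), and the most abundant accessory subunit, Ndufb9, of 0.21 (adjusted p = 0.145). The lower calls on Ndufb2 and Ndufv3, at -0.31 and -0.27, were less stable: of 21 fits without 1 library, that on Ndufb2 was lost in 8 (Control 1 and 3, DOX 1, 3 and 5, Tb 3 and 4 and Tb-DOX 3) and that on Ndufv3 in 15. The call on Ndufv3 was also lost with DESeq2, with median-ratio scaling, with TMM without members and with no filter. The call on Ndufv1 was lost without Control 4 or Control 5 (log2 fold change 0.29 to 0.49 over fits without 1 library), that on Ndufa9 without Control 5 (0.29 to 0.41) and that on Ndufa7 without DOX 4 (0.25 to 0.31). Without the 4 libraries that stood apart, 4 of 7 core and 12 of 30 accessory subunits were higher and 0 were lower. Of all genes, 14.5% were higher and 15.2% lower in that fit.

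Complex I assembly factors were lower in DOX for 5 of 8, with a median log2 fold change of -0.43 against 0.00 for all genes tested, of which 18.2% were lower. They were Ndufaf1, which acts on the membrane arm, Ndufaf3 and Ndufaf4, which work together early in assembly, Ndufaf5, a methyltransferase-family factor, and Ndufaf8, a partner of Ndufaf5. Ndufaf3 (ENSMUSG00000070283, chr9:108442736-108444633, minus strand of GRCm39) stood at 8.73, 7.94, 12.9, 8.41 and 10.3 CPM in Control and 5.45, 6.41, 5.50, 6.66 and 7.996 CPM in DOX. The highest DOX value lay just above the lowest Control value, so that the groups overlapped in 1 library each (log2 fold change -0.60, SE 0.16, adjusted p = 0.00545). Ndufaf8 stood at 8.03, 8.63, 11.7, 7.66 and 8.92 CPM in Control and 5.05, 8.57, 4.84, 6.26 and 4.75 CPM in DOX (log2 fold change -0.61, SE 0.17, adjusted p = 0.00763). DOX 2 lay within the Control range and the other 4 DOX libraries lay under it. Ndufaf5 had a log2 fold change of -0.49 (adjusted p = 0.0125), Ndufaf1 of -0.46 (adjusted p = 0.016) and Ndufaf4 of -0.40 (adjusted p = 0.0309). Ndufaf2, Ndufaf6 and Ndufaf7 were not called, with -0.33, -0.03 and -0.12. Without 1 library, the call on Ndufaf1 was lost for Control 3, DOX 3 or DOX 4 (log2 fold change -0.54 to -0.36) and that on Ndufaf4 for Control 3, 4 or 5 or DOX 3, 4 or 5 (-0.48 to -0.28). The count was 7 of 8 lower with library totals, 3 of 8 without Control 3 and 2 of 8 without the 4 libraries, where 15.2% of all genes were lower and where the median log2 fold change of the 8 was -0.31 against -0.01 for all genes. Ndufaf3 overlaps Impdh2 on the opposite strand in the table, and whether the counting used strand is not given in the sources used here, so that reads of the pair cannot be told apart.

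Assembly factors of the other complexes, which are not members, were counted from a list for comparison. Of 35 tested, 12 were lower and 4 higher in DOX, with a median log2 fold change of -0.28. That is 45.7% called against 36.2% of all genes, and 37.1% against 29.7% without the 4 libraries that stood apart (8 lower and 5 higher). Bcs1l, which inserts the Rieske protein into complex III, was lower (log2 fold change -0.96, SE 0.17, adjusted p = 0.000246), whereas Cox10, an enzyme of heme A synthesis for complex IV, was higher (log2 fold change 0.42, SE 0.10, adjusted p = 0.00298). In tumor-bearing mice 1 of the 35 was called, Cox10 again (log2 fold change 0.58, SE 0.10, adjusted p = 0.00201).

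None of the 4 complex II genes was called by edgeR, by DESeq2 or by limma on log2(FPKM + 0.1), and 1 had an unadjusted p under 0.05. Sdha, the flavoprotein, had a log2 fold change of 0.19 (adjusted p = 0.125) and Sdhb, the iron-sulfur subunit, of 0.21 (adjusted p = 0.0943). Without the 4 libraries that stood apart, 3 of the 4 were called higher, as were 4 of 8 in complex III and 14.5% of all genes. With all libraries, in complex III, Uqcrc2, a core subunit, and Uqcrh, the hinge protein, were higher among 8 genes, where 18.0% of all genes were. Uqcrc2 stood at 749.7, 766, 612, 739 and 745 CPM in Control and 903, 986, 722, 975 and 1101 CPM in DOX (log2 fold change 0.38, SE 0.11, adjusted p = 0.00861). Control 3 was the lowest library there, unlike for most members, and DOX 3 lay within the Control range. The call on Uqcrh was lost without Control 5 (log2 fold change 0.26 to 0.42 over fits without 1 library). Uqcrb, the most abundant complex III gene at 522 FPKM, had a log2 fold change of 0.23 (adjusted p = 0.0615), and Uqcrfs1, the Rieske iron-sulfur protein, of 0.06 (adjusted p = 0.732).

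Complex IV held the called member with the largest fold change, Cox4i2. Of 19 tested, 5 were higher (Cox7a2, Cox7b, Cox6a2, Cox7c and Cox6b1) and 3 lower (Cox7a1, Cox4i2 and Ndufa4l2), or 9 and 1 without the 4 libraries that stood apart. Of all genes, 18.0% were higher and 18.2% lower with every library, and 14.5% and 15.2% without the 4. Cox7a2, the form of subunit VIIa used in most tissues (ENSMUSG00000032330, chr9:79662643-79667160, minus strand of GRCm39), stood at 221, 199, 251, 198 and 198 CPM in Control and 258, 298, 249, 300.5 and 287 CPM in DOX (log2 fold change 0.38, SE 0.08, adjusted p = 0.00108). Control 3 was marginally above the lowest DOX library and the other 4 Control libraries lay under all DOX libraries. Cox7a1, the heart and skeletal muscle form (ENSMUSG00000074218, chr7:29883569-29885503, plus strand of GRCm39), stood at 200.5, 199, 279, 210.4 and 173 CPM in Control and 159, 129, 105, 142 and 144 CPM in DOX (log2 fold change -0.65, SE 0.17, adjusted p = 0.00496). All DOX libraries lay under all Control libraries. The summed level of 8 skeletal muscle markers moved with it, from 3516 to 4935 CPM in Control and from 1380 to 2796 CPM in DOX, against 1341 to 3402 CPM in Tb and 1550 to 2726 CPM in Tb-DOX. Acta1 and Ckm, which the heart also expresses, made up nearly all of this sum. Of the 5 of these markers that were tested, 1 was lower (Acta1) and 1 higher (Mylpf) in DOX, with a median log2 fold change of 1.13, so that the list as a whole did not move one way. Control 3 was the highest and DOX 3, Tb 6 and Tb-DOX 4 the lowest of their groups for both the sum and Cox7a1. The part of these markers in the Cox7a1 values was not tested. Cox7b stood at 396, 403, 429, 429 and 355 CPM in Control and 487, 529.5, 444, 523 and 536 CPM in DOX, with no overlap (log2 fold change 0.33, SE 0.08, adjusted p = 0.00253). Cox6a2, the muscle form of subunit VIa, stood at 462, 465, 462, 437 and 452 CPM in Control and 506, 590.2, 488, 556 and 598 CPM in DOX, again with no overlap (log2 fold change 0.27, SE 0.07, adjusted p = 0.00806).

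Cox4i2, a form of subunit IV known from lung and from low oxygen, was scarce in these hearts at 5.96 FPKM against 596 FPKM for Cox4i1. It stood at 4.75, 4.87, 8.32, 6.46 and 6.51 CPM in Control and 4.65, 4.25, 3.45, 3.13 and 3.48 CPM in DOX (log2 fold change -0.70, SE 0.19, adjusted p = 0.00559). The groups did not overlap, but the lowest Control and the highest DOX library were close. Ndufa4l2, a relative of the complex IV subunit Ndufa4 that is induced by low oxygen, had a log2 fold change of -0.53 (adjusted p = 0.0119). It overlaps Shmt2 on the opposite strand in the table. The calls on Cox4i2 and Ndufa4l2 were lost without the 4 libraries that stood apart, with log2 fold changes of -0.54 (adjusted p = 0.0532) and -0.44 (adjusted p = 0.0695), while that on Cox7a1 was kept in every fit run. The higher call on Cox6b1 was lost without any 1 of Control 1, 2, 4 and 5 and DOX 2, 4 and 5 (log2 fold change 0.21 to 0.29). The partner forms Cox4i1, Cox6a1, Cox6b2, Cox7a2l, Cox8a, Cox8b and Ndufa4 were not called, with log2 fold changes of 0.06, 0.26, -0.02, -0.07, 0.10, -0.21 and 0.16.

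In ATP synthase, 3 of 5 F1 genes were higher in DOX, with or without the 4 libraries that stood apart. Of all genes, 18.0% were higher with every library and 14.5% without the 4. Atp5c1, the gamma subunit that forms the rotating shaft (ENSMUSG00000025781, chr2:10060827-10085321, minus strand of GRCm39), had the smallest adjusted p of all members. It stood at 1015, 1021, 1133, 1019 and 1016 CPM in Control and 1327, 1502, 1252, 1404 and 1549 CPM in DOX (log2 fold change 0.43, SE 0.07, adjusted p = 0.000162). All DOX libraries lay above all Control libraries, and 4 of the 5 Control libraries stood between 1015 and 1021 CPM. Atp5a1 was higher (log2 fold change 0.35, SE 0.09, adjusted p = 0.00494), as was Atp5b, the catalytic beta subunit (log2 fold change 0.23, SE 0.08, adjusted p = 0.0362). The call on Atp5b was lost without any 1 of Control 1, 2, 4 and 5 and DOX 1, 2, 4 and 5 (log2 fold change 0.20 to 0.29), and that on Atp5a1 was kept. Atp5d and Atp5e, the delta and epsilon subunits, had log2 fold changes of -0.12 and -0.25 and were not called. Of the 12 genes of the membrane part, stalk and regulator, Atp5g2, a gene for the c ring, and Atp5l were higher, and 9 were without the 4 libraries. Atp5g2 stood at 69.3, 70.1, 68.8, 68.3 and 66.9 CPM in Control and 74.8, 86.02, 87.6, 91.1 and 86.1 CPM in DOX, with no overlap (log2 fold change 0.31, SE 0.08, adjusted p = 0.00446). The other c-ring genes, Atp5g1 and Atp5g3, had log2 fold changes of -0.08 and 0.20 and were not called, nor was Atp5h, the most abundant gene of this group, at 0.14. Atpif1, the inhibitory factor of ATP synthase, is not a member by its symbol in the table. It ranged from 42.6 to 56.99 CPM in Control and from 64.5 to 110.5 CPM in DOX (log2 fold change 0.73, SE 0.14, adjusted p = 0.000447).

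**Figure D3:**
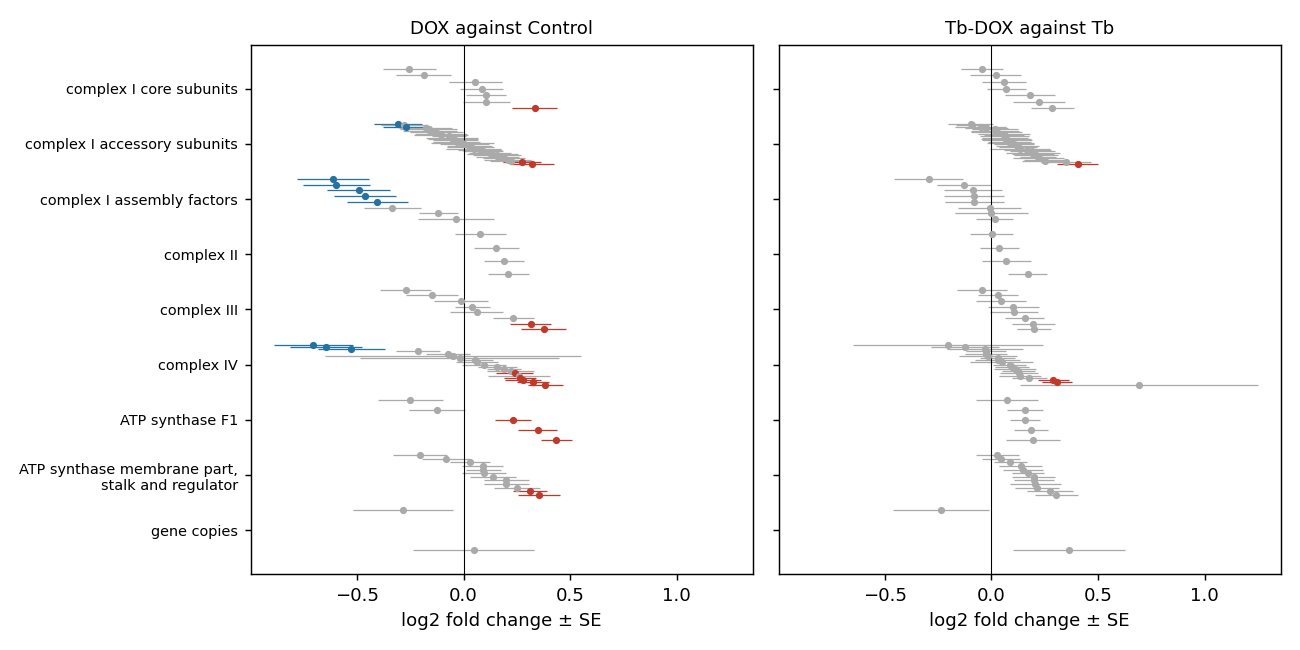
Log2 fold change ± SE (x axis) of each tested member, grouped by its place in the chain (y axis), for DOX against Control (left) and Tb-DOX against Tb (right). Red points were called higher, blue points lower and grey points were not called. The 5 blue complex I assembly factors on the left have no called counterpart on the right, where 3 members were called, all higher.

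**Figure D4:**
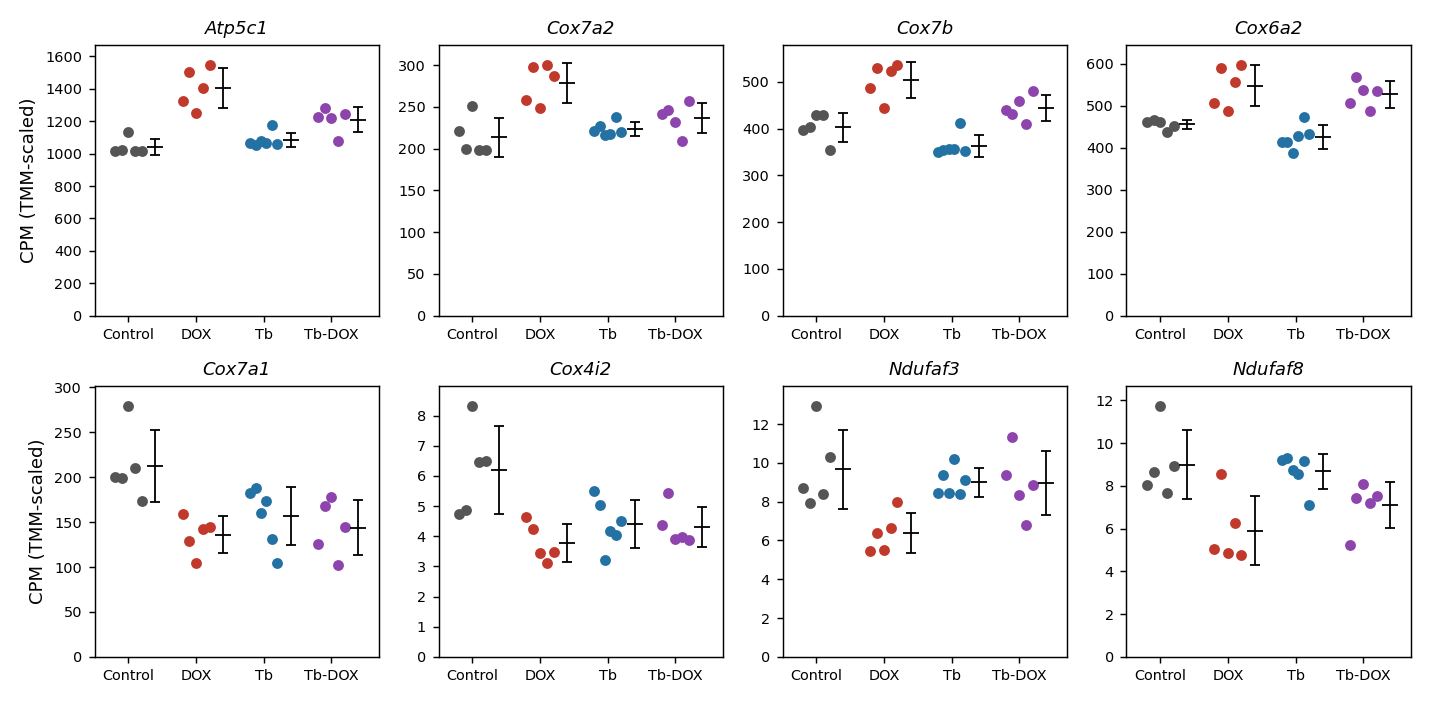
TMM-scaled CPM (y axis) of 8 members in each library of the 4 groups. Points are libraries and bars show the mean ± SD. Atp5c1, Cox7b and Cox6a2 lie higher in all DOX than in all Control libraries, and Cox7a1 and Cox4i2 lie lower in all DOX than in all Control libraries.

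Ratios of isoforms within a library do not depend on the scaling between libraries, and were added after the data had been seen. In all, 8 ratios were compared in each of the 2 doxorubicin comparisons, with two-sided exact permutation tests adjusted over the 16 tests. Cox7a1 FPKM per 100 Cox7a2 FPKM was 160.0, 176, 196, 187 and 154 in Control and 109, 76.2, 74.4, 83.3 and 88.6 in DOX. Every DOX library lay under every Control library (log2 difference -1.03, exact permutation p = 0.00794, adjusted p = 0.0423), which is the smallest p that 5 against 5 libraries allow. Cox4i2 FPKM per 100 Cox4i1 FPKM was 1.35 ± 0.235 (SD, n = 5) in Control and 0.800 ± 0.157 (SD, n = 5) in DOX, with no overlap (exact permutation p = 0.00794, adjusted p = 0.0423). Ndufa4l2 FPKM per 100 Ndufa4 FPKM was 3.20 ± 0.274 (SD, n = 5) in Control and 2.00 ± 0.342 (SD, n = 5) in DOX, with no overlap (exact permutation p = 0.00794, adjusted p = 0.0423). The Cox8a to Cox8b ratio and the Atp5g1 to Atp5g3 ratio did not pass (both with an exact permutation test, adjusted p = 0.127). The Cox6a1 to Cox6a2 ratio had a log2 difference of 0.01 in DOX against Control.

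In tumor-bearing mice these 3 ratios did not separate the groups. Cox7a1 per 100 Cox7a2 was 124 ± 26.8 (SD, n = 6) in Tb and 107 ± 20.6 (SD, n = 5) in Tb-DOX (exact permutation test, log2 difference -0.21, adjusted p = 0.649). Cox4i2 per 100 Cox4i1 was 0.934 ± 0.202 (SD, n = 6) and 0.923 ± 0.105 (SD, n = 5), and Ndufa4l2 per 100 Ndufa4 was 2.70 ± 0.558 (SD, n = 6) and 2.55 ± 0.224 (SD, n = 5). The highest Tb value of the Cox7a1 to Cox7a2 ratio was 146, under the lowest Control value of 154, a difference between Tb and Control that was not tested. The only ratio with an unadjusted p under 0.05 in the tumor-bearing mice was that of Cox6a1 to Cox6a2 (exact permutation test, log2 difference -0.30, p = 0.0130, adjusted p = 0.052).

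**Figure D5:**
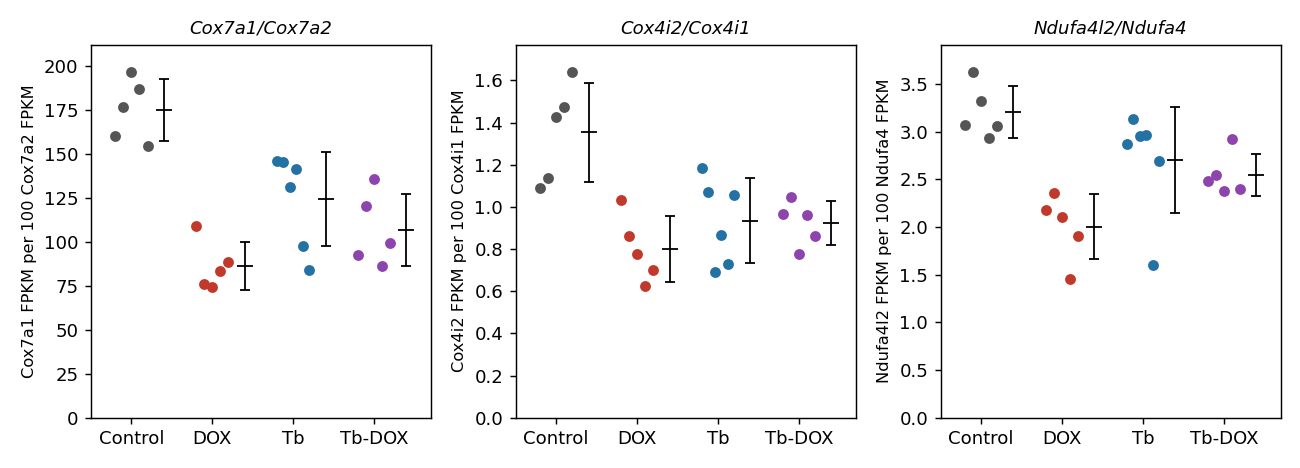
FPKM of one isoform per 100 FPKM of its partner (y axis) in each library of the 4 groups, for Cox7a1 over Cox7a2, Cox4i2 over Cox4i1 and Ndufa4l2 over Ndufa4. Points are libraries and bars show the mean ± SD. The DOX libraries lie under all Control libraries in each panel, and the Tb and Tb-DOX libraries overlap.

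Fewer members were called in tumor-bearing mice. Cox6a2, Ndufa6 and Cox7b were higher in Tb-DOX than in Tb, 3 of 95 or 3.16%, where 4.72% of all genes were called, 2.18% higher and 2.54% lower. No member was called lower, and none had an unadjusted p under 0.05 in that direction by edgeR, nor did DESeq2 or limma call any lower. Cox6a2 ranged from 388 to 474 CPM with a median of 421 in Tb and stood at 506, 569, 537, 488 and 535 CPM in Tb-DOX (log2 fold change 0.31, SE 0.07, adjusted p = 0.016). Every Tb-DOX library lay above every Tb library. Ndufa6, an accessory subunit of complex I (ENSMUSG00000022450, chr15:82234341-82238523, minus strand of GRCm39), ranged from 76.6 to 87.4 CPM with a median of 83.3 in Tb and stood at 112, 117, 114, 91.3 and 112 CPM in Tb-DOX (log2 fold change 0.40, SE 0.10, adjusted p = 0.0184). Its groups did not overlap either. Cox7b ranged from 349 to 412 CPM with a median of 354 in Tb and stood at 440.4, 430.3, 459, 410.1 and 481 CPM in Tb-DOX, where Tb 5 overlapped the lowest Tb-DOX library (log2 fold change 0.29, SE 0.07, adjusted p = 0.0267). Libraries of the groups did not overlap for 5 of 95 members, and for 4.95% of all genes.

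Fitted values above 0 were more frequent than called ones. Of 95 members, 75 (78.9%) had a fitted log2 fold change above 0 in Tb-DOX against Tb, against 46.7% of all genes, with a median of 0.09 against -0.02. Members shifted together within a library, so that they are not independent, and the SD of the member median over the libraries of these groups was 0.12. That is a spread of single libraries and not the error of the difference between the groups, which was not computed. An unadjusted p under 0.05 was found for 16 members (16.8%) and for 20.4% of all genes. The number called was 3 under library totals, DESeq2 and limma alike, and 16 without the 4 libraries that stood apart. In that last fit 16.8% of members were called, above the 7.09% of all genes, of which 3.37% were higher, whereas with every library the share of members lay under that of all genes. Leaving out 1 library at a time gave 1 to 7 calls, with the lowest count without Tb-DOX 2, Tb-DOX 3 or Tb-DOX 5 and the highest without Tb 5. The call on Cox6a2 was lost without Tb-DOX 2 (log2 fold change 0.28 to 0.35 over fits without 1 library), that on Ndufa6 without Tb-DOX 2, 3 or 5 (0.38 to 0.47) and that on Cox7b without Tb 1, 2, 3 or 4 or Tb-DOX 1, 3 or 5 (0.26 to 0.33). Genes that were lower in non-tumor-bearing mice were not called here. Cox7a1 had a log2 fold change of -0.13 (adjusted p = 0.712), Cox4i2 of -0.03, Ndufaf3 of -0.01 and Ndufaf8, the lowest of all members, of -0.29 (adjusted p = 0.315). Atp5c1 had 0.16 (adjusted p = 0.206). The members with the smallest adjusted p of the other parts were not called: Ndufv1 had 0.29, Sdhb 0.17, Uqcr10 0.20, Atp5b 0.19 and Atp5o 0.30. Atpif1 was higher in both doxorubicin comparisons (log2 fold change 0.72, SE 0.13, adjusted p = 0.00436 in tumor-bearing mice).

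Whether the doxorubicin difference itself differed with a tumor was tested as an interaction, whose log2 value is above 0 where the fold change was the higher one in tumor-bearing mice. It was called for no member, where 8.94% of all genes were called. With edgeR, 13 members (13.7%) had an unadjusted p under 0.05, 10 above 0 and 3 below, against 28.9% of all genes, and DESeq2 called 2 members, both below 0. The smallest adjusted p belonged to Ndufaf3 (log2 value 0.59, SE 0.22, adjusted p = 0.08), followed by Atp5c1 (log2 value -0.28, SE 0.10, adjusted p = 0.0837). Cox7a2 had an interaction log2 value of -0.30 (adjusted p = 0.0887), Cox4i2 of 0.67 (adjusted p = 0.0902) and Ndufa4l2 of 0.58 (adjusted p = 0.085). With library totals, 6 members were called above 0, and with limma on log2(FPKM + 0.1) 7 were. The calls found in non-tumor-bearing mice and not in tumor-bearing mice were therefore not shown to differ between them by edgeR with TMM scaling.

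The tumor alone was compared in mice without doxorubicin, in libraries that the comparisons above also use. Between Tb and Control, 1 member was called. Ndufb2, an accessory subunit of complex I, was lower (log2 fold change -0.42, SE 0.11, adjusted p = 0.0227), where 6.28% of all genes were called and 1.29% were lower. Ndufb2 stood at 66.2, 61.4, 83.8, 58.96 and 59.6 CPM in Control and ranged from 39.7 to 53.1 CPM with a median of 51.3 in Tb, with no overlap. The call was lost without Control 3 and without Tb 6. No member was called higher by edgeR, DESeq2 or limma, and by edgeR none had an unadjusted p under 0.05 in that direction. Fitted values lay below 0 for 75 of 95 members (78.9%) and for 51.3% of all genes, with a member median of -0.10, which was -0.03 without Control 3 and -0.01 without the 4 libraries that stood apart.

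Between Tb-DOX and DOX, Ndufaf3 was higher (log2 fold change 0.48, SE 0.16, adjusted p = 0.0366) and Atp5c1 lower (log2 fold change -0.22, SE 0.07, adjusted p = 0.0454), where 9.52% of all genes were higher and 7.93% lower. Ndufaf3 stood at 9.39, 11.3, 8.37, 6.78 and 8.87 CPM in Tb-DOX and Atp5c1 at 1227, 1280, 1219, 1080 and 1243 CPM, to be set beside the DOX values given above. Ndufaf3 lay above the DOX range in 4 of the 5 Tb-DOX libraries. Each call was lost in several fits: that on Atp5c1 in 17 of 21 fits without 1 library, and that on Ndufaf3 in 8 of 21. With library totals 5 members were higher and 0 lower, and the median over all 13990 genes was then 0.18 on the log2 scale.

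Other genes of the mitochondrion were counted from lists. Of 13 mitochondrially encoded genes, 1 was higher in DOX than in Control, mt-Nd6, a complex I subunit (log2 fold change 0.48, SE 0.17, adjusted p = 0.0286), and none was called in Tb-DOX against Tb by edgeR, where 0 had an unadjusted p under 0.05 and where 1 was lower without the 4 libraries. Import, carrier and cristae genes had 7 of 23 higher and 0 lower in DOX (30.4% called, where 36.2% of all genes were), and 2 of 23 higher in Tb-DOX against Tb, or 5 of 23 without the 4 libraries that stood apart. They included Vdac2, an outer membrane channel (log2 fold change 0.53, SE 0.07, adjusted p = 1.97e-05 in DOX), and Slc25a4, the heart ADP/ATP carrier (log2 fold change 0.54, SE 0.10, adjusted p = 0.00436 in Tb-DOX). Of 7 mitophagy genes, 4 were higher in DOX, where 18.0% of all genes were. The first was Bnip3, a mitophagy receptor (log2 fold change 1.47, SE 0.24, adjusted p = 9.39e-05). Of the 7, 0 were called in Tb-DOX against Tb, with 0 at an unadjusted p under 0.05.

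Among 16 regulators of mitochondrial biogenesis, 2 were higher and 2 lower in DOX, where 18.0% of all genes were higher and 18.2% lower. Tfb2m, a mitochondrial transcription factor, was higher (log2 fold change 0.54, SE 0.10, adjusted p = 0.000327), Nrf1 was higher (log2 fold change 0.47, SE 0.14, adjusted p = 0.0122), and Tfb1m, an rRNA methyltransferase, was lower (log2 fold change -0.98, SE 0.24, adjusted p = 0.00283), as was Tfam, the mitochondrial DNA packaging factor (log2 fold change -0.31, SE 0.12, adjusted p = 0.0446). Of 16 electron carrier genes, 2 were higher and 1 lower in DOX, the lower one being Coq4, of ubiquinone synthesis (log2 fold change -0.70, SE 0.19, adjusted p = 0.00556). Neither list had a call in Tb-DOX against Tb, and 1 gene of each had an unadjusted p under 0.05 there. Ribosomal protein genes, which are short and abundant like many members, were set beside them. Of 94 cytosolic ones, 45 were higher and 2 lower in DOX, with a median log2 fold change of 0.30, and of 78 mitochondrial ones 5 were higher and 16 lower, with a median of -0.12. Without the 4 libraries that stood apart, the counts higher and lower in DOX were 2 and 0 for mitochondrially encoded genes, 11 and 0 for import, carrier and cristae genes, 3 and 0 for mitophagy, 3 and 1 for biogenesis regulators and 2 and 1 for electron carriers. They were 42 and 2 for cytosolic and 7 and 9 for mitochondrial ribosomal proteins. Of all genes, 14.5% were higher and 15.2% lower in that fit.

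Cell type markers moved between the same groups, and their part in the member values was not tested. In these bulk samples, fewer cells of a type and less RNA per cell cannot be told apart. Of 10 cardiomyocyte markers, 3 were higher and 1 lower in DOX, and their sum ranged from 64830 to 81460 CPM in Control and from 78620 to 96310 CPM in DOX. The same sum was 54020 to 64770 CPM in Tb and 66900 to 82820 CPM in Tb-DOX, where 2 of 10 were higher and every Tb-DOX library lay above every Tb library. Fibroblast markers were lower in DOX for 5 of 7 and higher for 1, with sums of 1228 to 1758 CPM in Control and 920 to 1442 CPM in DOX. In Tb-DOX against Tb 4 of 7 fibroblast markers were lower. Macrophage markers were lower in DOX for 6 of 7, with sums of 111 to 135 CPM in Control and 45.1 to 87.0 CPM in DOX, and in Tb-DOX against Tb for 2 of 7, or 4 of 7 without the 4 libraries. Of 7 endothelial markers, 0 were called by edgeR in either comparison, with 1 at an unadjusted p under 0.05 in each. Erythroid markers were lower for 5 of 5 in both doxorubicin comparisons, with sums of 203 to 793 CPM in Control, 4.71 to 132 CPM in DOX, 368 to 828 CPM in Tb and 2.40 to 28.8 CPM in Tb-DOX. Every library with doxorubicin lay under every library without it. Neutrophil markers were higher for 5 of 7 in DOX, with sums of 0.651 to 2.85 CPM in Control and 6.49 to 55.0 CPM in DOX, against 513 to 4947 CPM in Tb and 783 to 3431 CPM in Tb-DOX. Every tumor-bearing library lay above every other one. Adipocyte markers summed to 568 to 807 CPM in Control, 418 to 581 CPM in DOX, 725 to 1099 CPM in Tb and 529 to 710 CPM in Tb-DOX, with a slight overlap of Control and DOX and none of Tb and Tb-DOX. Nearly all of these sums came from Fabp4, a fatty acid-binding protein also made by endothelial cells, while Adipoq, Plin1, Cidec, Retn and Lep were under 1 CPM in every Control and DOX library. Brown adipocyte markers stood at 688 CPM in 1 DOX library, DOX 4, of which Ppargc1a, a regulator of mitochondrial biogenesis, made up 664 CPM, and the biogenesis regulators at 1441 CPM there, against 873 to 996 CPM in the other DOX libraries. B cell markers summed to 3.40 to 8.27 CPM in Control and 2.01 to 3.01 CPM in DOX, and to 7.87 to 16.0 CPM in Tb and 1.96 to 6.15 CPM in Tb-DOX, with no overlap in either comparison. Germ cell markers, such as the sperm protamines and Tnp1, summed to 1.65 to 5.08 CPM in Control and 3.89 to 4.73 CPM in 4 of 5 Tb-DOX libraries, against 0 CPM in Tb-DOX 1, at most 0.238 CPM in DOX and at most 0.181 CPM in Tb. Retnlg, Ly6g, Mmp8 and Ngp had a median of 0 CPM in Control. Without the 4 libraries that stood apart, the counts higher and lower in DOX were 7 and 1 for cardiomyocyte, 0 and 5 for fibroblast, 0 and 6 for macrophage, 0 and 5 for erythroid and 4 and 0 for neutrophil markers. In Tb-DOX against Tb they were 3 and 1 for cardiomyocyte, 0 and 4 for fibroblast and 0 and 5 for erythroid markers.

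Near-identical copies can share reads with members. The rows with the -ps mark that were left out reached a mean of 1145 counts for Ndufa12-ps and 557 for Cox5b-ps, so that values of Ndufa12 and Cox5b are uncertain to that extent. By the coordinates of the table, 33 of 99 members overlap another tested gene, most of them on the opposite strand. They include Atp5c1 with Gm23608 on the same strand, and Atp5a1 with Haus1, Uqcrc2 with Pdzd9 and Ndufb2 with Braf on the opposite strand.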

How the data were processed

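Heart RNA was sequenced by the authors in 21 paired-end libraries, enriched with oligo(dT) beads by the methods of the study, whereas the labels name oligo(dT) beads or rRNA depletion. Per the labels, the processing notes name cutadapt, FastQC, HISAT2, HTSeq 0.6.1 and DESeq2 1.34.0 on GRCm39. The deposited table holds raw counts and FPKM per gene; the authors' FPKM equalled count per exonic kilobase and per 1000000 counts in 100% of values, within 0.0051. Counts (13521200 to 18601445 per library) were tested with edgeR 4.0.16 (TMM, quasi-likelihood F, 4 groups in 1 fit, SE from the fold change and F) over 13990 genes with a mean of 0.5 FPKM or more. Calls were made at adjusted p under 0.05. CPM use the TMM-scaled totals. Alternatives were DESeq2 1.42.0, limma 3.58.1 on log2(FPKM + 0.1) and log2(FPKM + 1), other scalings and filters, a replicate block and leaving out libraries.

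The members and lists were chosen with earlier results of these data known. Named genes followed a rule: per part the most abundant and most changed members, isoform families, the ATP synthase inhibitor (Atpif1 in the table), catalytic subunits, and per comparison and direction the first 3 by adjusted p. Genes called by count that the rule did not reach were named after their values were seen. Nothing states that libraries of a group came from separate mice beyond their numbering, so p-values measure the spread between these libraries. No libraries of a group agreed within counting error. The coordinates of the table are on GRCm39, whereas the promoters are on GRCm38.p6 and were matched by symbol. The fits were tested on simulated data, with changes put into genes drawn at large and not from the members. At a log2 change of 0.5, 26 of 100 were recovered in DOX against Control and 30 of 100 in Tb-DOX against Tb. At a log2 change of 1, 82 and 87 of 100 were. A gene that was not called can therefore still have changed. Values of some genes that the rule names are not reported here.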

Additional observations from a re-analysis of the deposited data

Results flagged for a closer look

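In groups of 4 to 10 libraries, a library was picked out when its gap to the nearest other library, as a share of the range of the group, passed the 95% critical value of Dixon. Chance picks about 1 in 20 groups, and 36 were picked of 160 tested. Every one of them was Control 3, DOX 3, Tb 5, Tb 6 or Tb-DOX 4. By edgeR with TMM, no member passed the test of a difference between the doxorubicin comparisons with and without a tumor, and 13 had an unadjusted p under 0.05. DESeq2 called 2, library totals 6 and limma 7 and 4.

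The share of counts from members was 4.27% in Control 3 and 3.09% to 3.22% in the others of its group. The share of counts from mitochondrially encoded genes was 12.6% in Control 3 and 24.7% to 26.8% in the others of its group. Control 3 was above its group for Ndufv1 with 729 CPM against 454 to 473 CPM, Ndufb9 with 448 CPM against 268 to 303 CPM and Ndufa9 with 609.5 CPM against 449 to 491 CPM in the other libraries of the group. It was also above its group for Sdha with 1332 CPM against 1023 to 1064 CPM, Atp5a1 with 3936 CPM against 3431 to 3480 CPM and Atp5c1 with 1133 CPM against 1015 to 1021 CPM. The same held for Atp5h with 925 CPM against 572 to 630.2 CPM, Atp5o with 838 CPM against 519 to 555 CPM and Cox4i1 with 1145 CPM against 782 to 861 CPM. The same held for Cox7a2l with 282 CPM against 179 to 187 CPM and Atp5g3 with 1019 CPM against 729.6 to 813 CPM. Control 3 was below its group for Uqcrc2 with 612 CPM against 739 to 766 CPM in the other libraries of the group.

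DOX 3 was below its group for Ndufa4 with 397 CPM against 471 to 500.3 CPM, Atp5g3 with 737 CPM against 977 to 1054 CPM and Ndufs1 with 608 CPM against 812 to 887 CPM in the other libraries of the group.

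Tb 5 was above its group for Ndufb9 with 366 CPM against 295 to 321 CPM, Atp5c1 with 1177 CPM against 1056 to 1080 CPM and Atp5g2 with 90.1 CPM against 65.7 to 74.5 CPM in the other libraries of the group. It was also above its group for Cox7b with 412 CPM against 349 to 357 CPM and Cox8a with 32.1 CPM against 21.7 to 22.7 CPM.

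Tb 6 was below its group for Ndufa9 with 397 CPM against 474 to 509.8 CPM, Ndufaf8 with 7.13 CPM against 8.56 to 9.32 CPM and Atp5g1 with 147 CPM against 179 to 199 CPM in the other libraries of the group. It was also below its group for Ndufs1 with 575 CPM against 701 to 769.9 CPM and Ndufb2 with 39.7 CPM against 49.6 to 53.1 CPM.

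The share of counts from mitochondrially encoded genes was 17.4% in Tb-DOX 4 and 21.2% to 22.3% in the others of its group. Tb-DOX 4 was below its group for Ndufa6 with 91.3 CPM against 112 to 117 CPM, Sdha with 897 CPM against 1123 to 1197 CPM and Sdhb with 463 CPM against 596 to 624.8 CPM in the other libraries of the group. It was also below its group for Uqcrb with 389.7 CPM against 465 to 494 CPM, Uqcrc2 with 670.2 CPM against 836 to 882 CPM and Atp5a1 with 3689 CPM against 4109 to 4264 CPM. The same held for Atp5b with 3273 CPM against 3729 to 3893 CPM and Uqcrfs1 with 491 CPM against 627 to 679.5 CPM.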

How the results depend on the processing

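In DOX against Control, 8 members were higher and 4 lower at adjusted p under 0.01, 4 and 21 with library totals, and 5 and 20 with limma at either pseudocount. The counts were 44 and 3 without the 4 libraries that stood apart, an alternative chosen after seeing the data. With library totals the median over all 13990 genes moved from 0.00 to -0.14, and 4 of the 15 higher calls and all 10 lower ones were shared. Leaving out 1 library at a time gave 10 to 28 higher (lowest without Control 5, highest without Control 3), 6 to 12 lower (lowest without Control 3 or DOX 3, highest without Control 5), and a median of 0.0099 to 0.116. The member median, 0.05 as reported, was reversed to -0.092 with library totals and to -0.084 and -0.083 with limma. It was 0.184 without the 4 libraries. The SD of the member median over single libraries was 0.192, which is not the error of a difference between groups. With median-ratio scaling, TMM without members, no filter, DESeq2, a mean of 5 FPKM or only the groups compared, both counts stayed within 1.5 times.

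In Tb-DOX against Tb the higher count was 0 at adjusted p under 0.01, 1 with no filter, 6 at a mean of 5 FPKM, 5 with only the groups compared and 16 without the 4 libraries. Without 1 library it was 1 to 7 and the median 0.046 to 0.145. In Tb against Control the lower count was 0 at adjusted p under 0.01, with only the groups compared, with limma, under the replicate block and without the 4 libraries, and 0 to 3 without 1 library, with a median of -0.143 to -0.034.

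In Tb-DOX against DOX the higher count was 0 at adjusted p under 0.01, with no filter, at a mean of 5 FPKM, with only the groups compared and under the replicate block, 5 with library totals, and 8 and 7 with limma. The lower count was 0 in those fits and with TMM without members, 2 with median-ratio scaling and DESeq2, and 6 without the 4 libraries. The median was 0.142 with library totals and 0.141 with limma, reversed from -0.05. Without 1 library the counts were 0 to 1 higher and 0 to 3 lower (highest without DOX 3), and the median -0.0986 to -0.0041. The interaction had 6 members above 0 with library totals, 7 and 4 with limma and 2 below 0 with DESeq2. Without 1 library it had 0 to 2 above and 0 to 1 below, with a median of -0.020 to 0.103. It was not run with only the groups compared. Where no value is given for why a count moved, the cause was not tested.

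The replicate block gave 14 higher and 11 lower in DOX against Control, and 2 higher in Tb-DOX against Tb. Libraries that share a number did not deviate together in a steady way (correlations of -0.229 to 0.205). The check found no pairing by number, but it cannot exclude one. The median SE of a member was 0.11 on the log2 scale in DOX against Control, with 5 libraries a group, and small differences cannot be resolved at that precision.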
